A study of Mus musculus with 9 samples.

Results

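The glycolytic enzymes and the transporters that carry lactate out of the cell were examined as a module of 31 genes, chosen by symbol and taken from a count table of 28111 genes. The list runs from glucose phosphorylation to lactate export and holds the isoenzymes at each step. It was read in induced regulatory T cells (Treg), CD4 T cells driven to express the transcription factor Foxp3, from C57BL/6J mice. There were 4 libraries from mice carrying a transgene for the glucose transporter Glut1 (Glut1Tg, labelled Glut1.Transgenic) and 5 from wild-type mice (WT). The labels give no treatment, time, age or promoter of the transgene. They also place every library in a mouse group without saying how the groups differ: mouse group 2 holds Glut1Tg replicate 1 with WT replicates 2, 4 and 5, and mouse group 1 holds Glut1Tg replicates 2, 3 and 4 with WT replicates 1 and 3. Since no label says that replicates came from separate mice or cultures, p-values here cover only the spread between libraries, part of which may be technical.

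Glycolysis splits glucose into pyruvate in the cytosol and yields ATP and NADH. Lactate dehydrogenase then turns pyruvate into lactate and restores NAD, and monocarboxylate transporters carry the lactate out together with a proton. Activated T cells raise this flux as they grow, under transcription factors such as Myc and Hif1a, whereas Treg are known to rely on it less than effector T cells do. The question put to the module was whether more glucose transport went with different levels of the transcripts downstream of it.

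All 31 genes were in the table, and 30 of them were among the 14817 genes that passed the filter on low counts. The exception was Hkdc1, a hexokinase-domain gene, with at most 2 counts in a library. Values are in CPM, counts scaled to a common library total, from total counts of 20881035 to 31196428 per library. Glut1Tg replicate 1 and WT replicate 2 stood apart on the first principal component, which held 46.6% of the variance, with scores of -101.4 and -87.6 against -14.1 to 48.3 in the other libraries. All 5 of the proliferation markers looked at were tested, and their summed level in Glut1Tg was 4433 CPM in replicate 1 and 779.7 to 1275 CPM in the others, while in WT it was 4389 CPM in replicate 2 and 1096 to 1901 CPM in the others. Glut1Tg replicate 3 stood apart on the second component (19.7%): the sum of 7 mast cell and basophil markers was 2388 CPM there and 93.0 to 610.3 CPM in the other Glut1Tg libraries, against 128 to 833 CPM in WT, and the sum of 7 myeloid markers was 359.6 CPM there and 3.90 to 16 CPM in the other Glut1Tg libraries, against 8.85 to 18.0 CPM in WT. The sum of 6 platelet and erythroid markers was 1054 CPM there and 4.69 to 79.3 CPM in the other Glut1Tg libraries, against 5.07 to 280.2 CPM in WT. Of the defining markers, Lyz2 of myeloid cells was at 207 CPM in that library and at no more than 1.27 CPM in the other Glut1Tg libraries, against at most 2.67 CPM in WT. Kit, of the mast cell and basophil markers, did not follow. It was at 116 CPM in that library, 86.8 to 124 CPM in the other Glut1Tg libraries and 79.6 to 146 CPM in WT. Itgam, of the myeloid markers, followed only slightly, at 17.5 CPM in that library, 1.70 to 14.2 CPM in the other Glut1Tg libraries and 6.98 to 15.0 CPM in WT. The sum of 5 Treg markers was 4757 CPM in Glut1Tg replicate 1 and 1622 to 2122 CPM in the others of that genotype, against 4384 CPM in WT replicate 2 and 2152 to 2638 CPM in the other WT libraries. Of these markers Il2ra, a receptor chain for interleukin 2, was at 2959 CPM in Glut1Tg replicate 1 and 241 to 378 CPM in the other Glut1Tg libraries, against 2386 CPM in WT replicate 2 and 319.9 to 690.0 CPM in the rest of WT. Tnfrsf18 was also highest there, at 491 and 408 CPM against 162 to 211 CPM elsewhere. Ctla4 and Ikzf2 did not follow. Ctla4 was at 367 CPM in Glut1Tg replicate 1 (other Glut1Tg 370 to 621) and 383 CPM in WT replicate 2 (other WT 354 to 666). Ikzf2 was at 118 CPM in Glut1Tg replicate 1 (other Glut1Tg 75.9 to 192) and 205 CPM in WT replicate 2 (other WT 172 to 234). None of these sums had a part in any fit, and their share in the results below was not tested. Foxp3 was present throughout, at 621 to 822 CPM in Glut1Tg and 814 to 1164 CPM in WT. Xist, expressed from the inactive X chromosome of females, was at 256 and 340.2 CPM in Glut1Tg replicates 2 and 4 and at no more than 1.32 CPM elsewhere. Eif2s3y, a gene of the Y chromosome, was at 0.149 and 0.0335 CPM in those libraries. It was at 95.2 and 151 CPM in Glut1Tg replicates 1 and 3 and at 120 to 161 CPM in WT. Both libraries with Xist were thus Glut1Tg of mouse group 1. Sex had no term in any fit, and its part in the results was not tested.

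Slc2a1, which encodes Glut1 and so checks the genotype labels, had 260.2, 495.8, 279 and 457 CPM in Glut1Tg replicates 1 to 4, against 52.0, 36.6, 58.7, 33.3 and 29.7 CPM in WT replicates 1 to 5. Every Glut1Tg library lay above every WT library. The log2 fold change was 2.92 (SE 0.19; adjusted p = 0.000903 by edgeR's quasi-likelihood test with mouse group in the model; p = 0.00794 by an exact two-sided permutation of the libraries, which took no account of mouse group and can give no lower value). The ratio of the Glut1Tg to the WT mean was 7.84 in mouse group 2 and 7.42 in mouse group 1. The gene did not pass without Glut1Tg replicate 1 and WT replicate 2 together or in mouse group 1 alone, fits of fewer libraries. Counts per gene do not separate the transgene from the endogenous copy. As these are bulk libraries, fewer cells expressing a gene and less of its RNA per cell cannot be told apart, here and below.

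Against this higher level of the transporter, no gene of the module passed the genotype test. Of the 30 genes, 0 were higher and 0 lower in Glut1Tg at an edgeR adjusted p under 0.05, where 0.00675% of all genes tested were higher and 0% lower, and the lowest adjusted p in the module was 0.681. DESeq2 and limma-voom also called 0 of the 30. The genotypes overlapped in all 30 genes, where 1.01% of all genes tested were higher and 0.58% lower without overlap. An unadjusted edgeR p under 0.05 was reached by 6 genes, all higher in Glut1Tg (Pgm2, Aldoa, Gapdh, Eno1, Slc16a6 and Bsg), where 4.5% of all genes tested were higher and 1.5% lower. By DESeq2 it was reached by 8 genes of the module and 1144 of all genes tested, and by limma-voom by 5 and 894.

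The fold changes leaned towards Glut1Tg without passing. They were above 0 in 23 of the 30 genes, where 52.4% of all genes tested were above 0, and their median was 0.39 on the log2 scale, against 0.02 over all genes tested. Without Glut1Tg replicate 1 the median was 0.24 and without Glut1Tg replicate 3 it was 0.27, and in either case 0 genes reached an unadjusted p under 0.05. In mouse group 1 alone, without the lone Glut1Tg library of mouse group 2, it was 0.26. The data bounded the difference for part of the module: in 15 of the 30 genes the 95% interval lay inside 0.5 to 2-fold, as it did in 61.5% of all genes tested. In the other 15 genes the interval took in a difference of 2-fold or more in at least 1 direction.

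**Figure D1:**
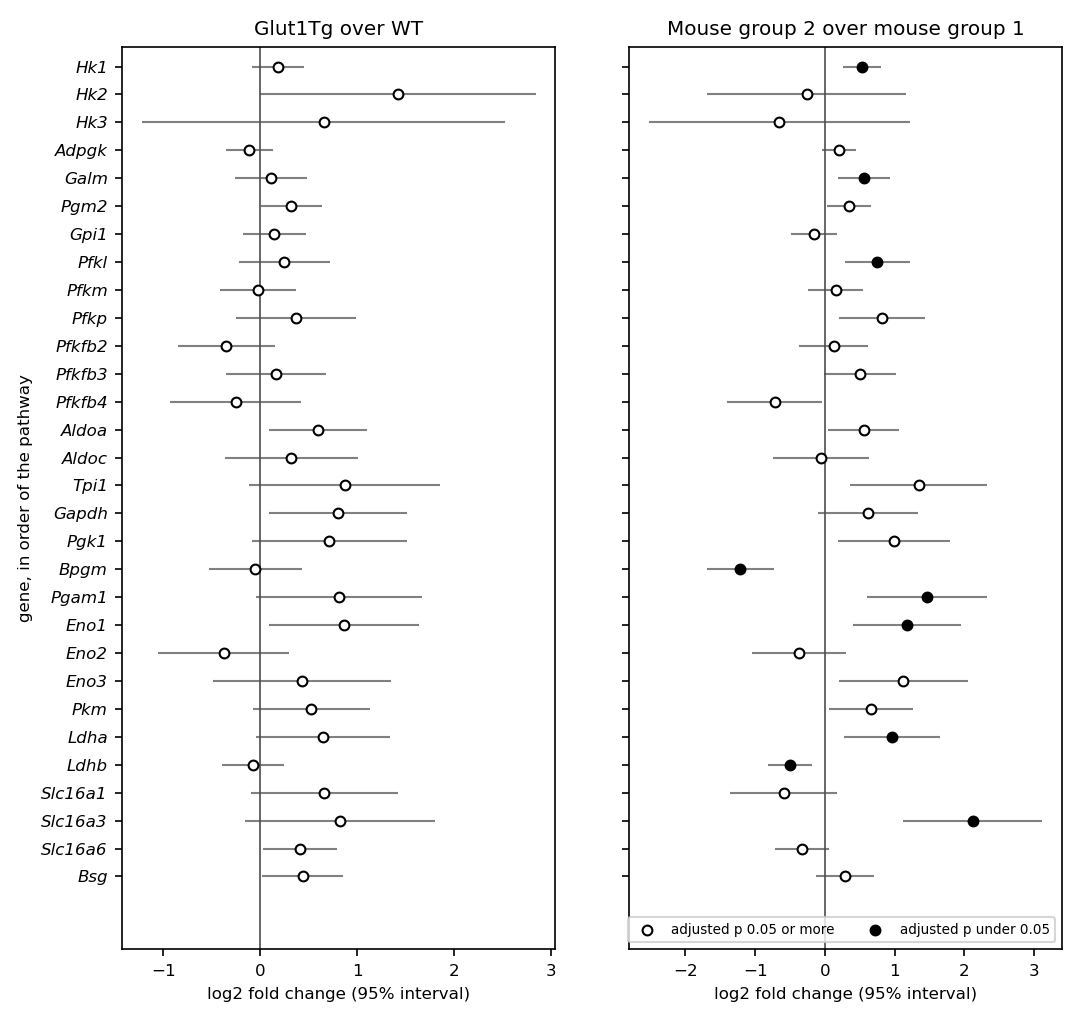
Log2 fold change (x axis) of the 30 tested genes in pathway order, with the 95% interval as a line, for Glut1Tg over WT (left) and for mouse group 2 over mouse group 1 (right), from 1 edgeR model. Filled points passed an adjusted p under 0.05: 0 of 30 on the left, 9 of 30 on the right, and the intervals are widest for Hk2 and Hk3.

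The levels of the genes set the frame for the steps. Per length of the principal transcript, the highest mean over the 9 libraries was that of Ldha at 438 CPM per kb, followed by Pkm at 391, Eno1 at 287, Aldoa at 241 and Gpi1 at 194 CPM per kb. At the other end were Pfkfb2 at 1.52, Eno2 at 1.4, Hk3 at 0.543 and Hkdc1 at 0.00749 CPM per kb. Among the hexokinases, phosphofructokinases, aldolases, enolases and lactate dehydrogenases, the isoenzyme with the largest share per length was the same in all 9 libraries. The spread over libraries was wide enough that neighbours in this order, such as Ldha at 507 ± 314 and Pkm at 448 ± 218 CPM per kb in Glut1Tg (SD, n = 4), or Ldha at 383 ± 168 and Pkm at 345 ± 127 CPM per kb in WT (SD, n = 5), could not be ranked. Reads of genes with near-identical copies or processed pseudogenes, which include Gapdh, Ldha, Pgk1, Pgam1, Tpi1 and Eno1, may have been split or dropped in counting, so their absolute levels are uncertain.

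**Figure D2:**
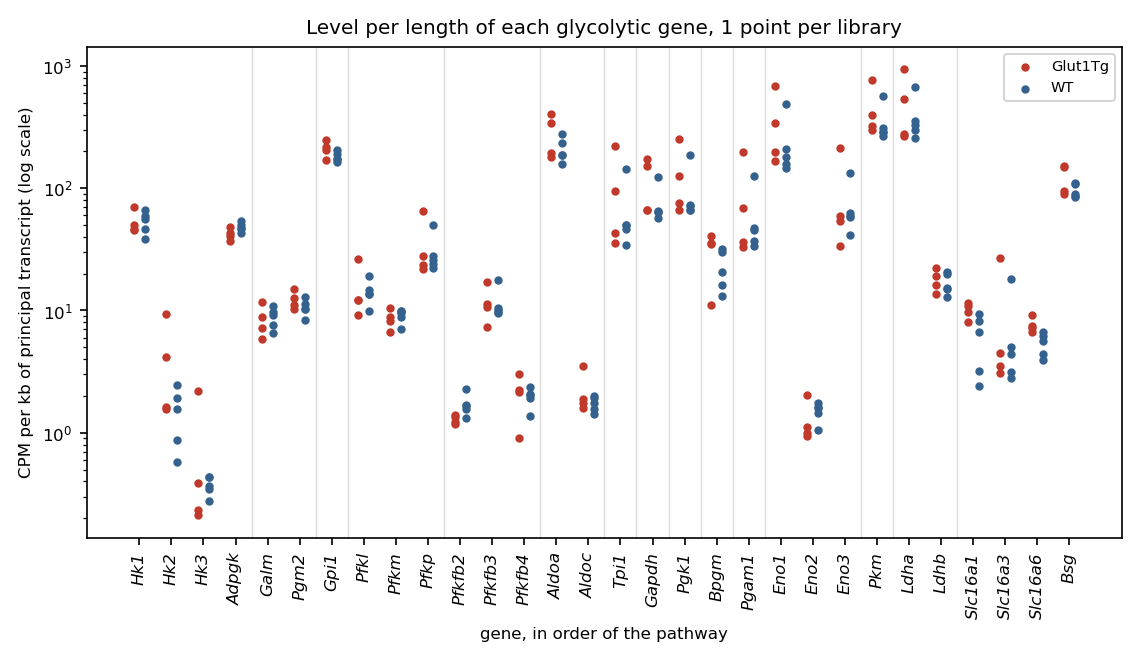
Level per length of the 30 tested genes in pathway order, as CPM per kb of the principal transcript on a log axis, with 1 point per library (4 Glut1Tg in red, left, and 5 WT in blue, right). Red and blue points overlap in every gene, and the levels span from under 1 CPM per kb for Hk3 to a mean of 438 for Ldha.

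Glucose is trapped in the cell by hexokinases, which phosphorylate it. Hk1, the constitutive hexokinase of mitochondria, had 271, 176, 193 and 177 CPM in Glut1Tg replicates 1 to 4, against 147, 257, 180.2, 214 and 228 CPM in WT replicates 1 to 5. The genotypes overlapped almost fully, and the highest library of each was in mouse group 2. Hk1 made up 81.2% to 96.1% of the summed level per length of Hk1, Hk2 and Hk3 in Glut1Tg and 95.2% to 98.3% in WT. Hk2, the inducible hexokinase, is named here after its values were seen, since its fold change was the largest of the module: 22.9, 9, 51.8 and 8.60 CPM in Glut1Tg replicates 1 to 4, against 8.68, 13.6, 10.6, 4.82 and 3.18 CPM in WT replicates 1 to 5. Glut1Tg replicates 1 and 3 lay above every WT library, and the other 2 lay inside the WT range. The log2 fold change of 1.42 (SE 0.63) did not pass (edgeR adjusted p = 0.681, unadjusted p = 0.0502). Hk3, the hexokinase known from myeloid cells, reached 7.07 CPM in Glut1Tg replicate 3, the library with the highest sums of myeloid, mast cell, platelet and erythroid markers, and lay between 0.681 and 1.24 CPM in the other Glut1Tg libraries, against 0.893 to 1.41 CPM in WT. Adpgk, which phosphorylates glucose with ADP in place of ATP, lay between 92.6 and 119 CPM in Glut1Tg and 107 and 134 CPM in WT, and its interval for the fold, 0.781 to 1.1, was among the narrowest of the module.

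Galm and Pgm2 feed sugar into the pathway from the side: Galm is the mutarotase that converts the anomers of galactose and glucose, and phosphoglucomutase links glycogen to glucose 6-phosphate. The gene that the table calls Pgm2 (ENSMUSG00000025791, chr4:99929414-99987294 on the plus strand of mm10) is named Pgm1 in GENCODE M21. It had 35.9, 24.2, 29.8 and 26.5 CPM in Glut1Tg replicates 1 to 4, against 20.0, 30.6, 24.4, 26.6 and 24.4 CPM in WT replicates 1 to 5. The ranges overlapped, with 1 Glut1Tg library above all of WT. The log2 fold change was 0.32 (SE 0.14; edgeR unadjusted p = 0.0457, adjusted p = 0.681). Galm had 27.0, 16.6, 20.6 and 13.4 CPM in Glut1Tg replicates 1 to 4, against 15.2, 21.1, 17.7, 25.3 and 22.6 CPM in WT replicates 1 to 5, and its extremes were both Glut1Tg libraries. Gpi1, the isomerase of the second step, had 489.7, 623, 716 and 590.3 CPM in Glut1Tg replicates 1 to 4, against 502, 475, 551, 587 and 502 CPM in WT replicates 1 to 5. In mouse group 1 its 3 Glut1Tg libraries lay above both WT libraries, but in mouse group 2 the Glut1Tg library lay inside the WT range, and the fitted fold of 1.11 (95% interval 0.883 to 1.39) did not pass (edgeR adjusted p = 0.744).

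Phosphofructokinase commits the sugar to glycolysis and is the main point of control. Pfkp, the platelet isoform, had 269.7, 90.2, 115 and 98.1 CPM in Glut1Tg replicates 1 to 4, against 99.0, 209, 108, 91.7 and 115 CPM in WT replicates 1 to 5. The liver isoform Pfkl had 98.7, 45.3, 45.3 and 34.1 CPM in Glut1Tg replicates 1 to 4, against 36.9, 71.7, 51.0, 55.0 and 50.7 CPM in WT replicates 1 to 5. In both genes Glut1Tg replicate 1 and WT replicate 2 were the highest libraries and the other 7 lay close together, whatever their genotype. The muscle isoform Pfkm lay between 19.1 and 29.9 CPM in Glut1Tg and 20.2 and 28.5 CPM in WT. Per length, Pfkp made up 49.1% to 64.8% of the sum of the 3 genes in Glut1Tg and 47.3% to 64.2% in WT, and Pfkm had its lowest shares, 8.82% and 11.3%, in the libraries where Pfkp was highest. None of the 3 genes passed the genotype test, with log2 fold changes of 0.37 (SE 0.27) for Pfkp, 0.25 (SE 0.21) for Pfkl and -0.02 (SE 0.17) for Pfkm and edgeR adjusted p of 0.689, 0.709 and 0.967.

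The Pfkfb enzymes make and break fructose 2,6-bisphosphate, the activator of phosphofructokinase, and Pfkfb3 is the form with the strongest kinase activity. Pfkfb3 had 79.8, 49.4, 34.2 and 52.6 CPM in Glut1Tg replicates 1 to 4, against 44.5, 81.6, 48.8, 45.2 and 46.8 CPM in WT replicates 1 to 5. The 2 highest libraries were again Glut1Tg replicate 1 and WT replicate 2, with the genotypes otherwise intermixed. Pfkfb4, at 3.14 to 10.6 CPM in Glut1Tg and 4.79 to 8.24 CPM in WT, ran the other way: the same libraries held its lowest values. Pfkfb2 lay between 5.18 and 6.17 CPM in Glut1Tg and 5.89 and 10.03 CPM in WT. Pfkfb2 had a negative fold change (log2 -0.35, SE 0.22) that did not pass (edgeR adjusted p = 0.681), and 17.4% of its exonic bases are shared with Gm29427 on the same strand.

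Aldolase cuts the sugar into triose phosphates. Aldoa had 609.9, 295, 517 and 274 CPM in Glut1Tg replicates 1 to 4, against 241, 422, 282, 353 and 282 CPM in WT replicates 1 to 5. Glut1Tg replicates 1 and 3 lay above all of WT and replicates 2 and 4 inside the WT range. The fold was 1.51 (95% interval 1.06 to 2.15; edgeR unadjusted p = 0.026, the lowest of the module, adjusted p = 0.681). Aldoa made up 98.98% to 99.5% of the level per length of Aldoa and Aldoc in Glut1Tg and 98.99% to 99.4% in WT. Aldoc lay between 4.42 and 9.83 CPM in Glut1Tg, highest in replicate 3, and between 3.97 and 5.53 CPM in WT.

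The payoff steps recover ATP and NADH. Tpi1, the triose phosphate isomerase, had 359, 69.4, 152 and 57.3 CPM in Glut1Tg replicates 1 to 4, against 54.7, 233, 79.8, 80.1 and 74.3 CPM in WT replicates 1 to 5. Gapdh, which makes NADH, had 247, 93.9, 218 and 94.4 CPM in Glut1Tg replicates 1 to 4, against 91.3, 176, 81.6, 90.1 and 92.9 CPM in WT replicates 1 to 5. Pgk1, which makes the first ATP to be gained, had 462, 120.2, 230.5 and 138 CPM in Glut1Tg replicates 1 to 4, against 121, 339.8, 131, 121 and 134 CPM in WT replicates 1 to 5. The same pattern held in all 3 genes: Glut1Tg replicate 1 was highest, WT replicate 2 and Glut1Tg replicate 3 came next in either order, and the remaining 6 libraries of both genotypes lay together. The folds were 1.83 (95% interval 0.925 to 3.62) for Tpi1, 1.74 (1.06 to 2.87) for Gapdh and 1.64 (0.942 to 2.85) for Pgk1, each with an edgeR adjusted p of 0.681, and Gapdh had an unadjusted p of 0.0319. Pgk1 lies on the X chromosome, and the Glut1Tg libraries with Xist were its 2 lowest in that genotype, as they were for Tpi1 and Gapdh, which are not X-linked.

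Pgam1, the phosphoglycerate mutase, had 349, 58.9, 123 and 64.3 CPM in Glut1Tg replicates 1 to 4, against 60.1, 223, 65.2, 80.8 and 84.6 CPM in WT replicates 1 to 5. Eno1, the enolase of most cells, had 1396, 341, 692 and 402 CPM in Glut1Tg replicates 1 to 4, against 299, 997, 319, 366 and 425 CPM in WT replicates 1 to 5. Pkm, the pyruvate kinase, had 1871, 784, 972 and 734 CPM in Glut1Tg replicates 1 to 4, against 699, 1389.8, 755, 656 and 700.5 CPM in WT replicates 1 to 5. In all 3 genes Glut1Tg replicate 1 was highest, WT replicate 2 came next and then Glut1Tg replicate 3, and the genotypes overlapped. The folds were 1.75 (95% interval 0.970 to 3.18) for Pgam1, 1.82 (1.07 to 3.11) for Eno1 and 1.44 (0.949 to 2.19) for Pkm, each with an edgeR adjusted p of 0.681, and Eno1 had an unadjusted p of 0.0315. Gene counts do not tell the M1 and M2 splice forms of Pkm apart. Eno1 has a near-identical copy, Eno1b, at 19.3 to 43.2 CPM in Glut1Tg and 10.2 to 32.4 CPM in WT, with which reads could be exchanged.

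The other enolases took a small to moderate share. Eno3, the muscle form, lay between 52.7 and 331 CPM in Glut1Tg and 64.4 and 208 CPM in WT, and made up 8.95% to 25.7% of the level per length of the 3 enolases in Glut1Tg and 18.4% to 27.9% in WT. Unlike Eno1, it was lowest in Glut1Tg replicate 3. Eno2, the neuronal form, stayed at 2.61 to 5.67 CPM in Glut1Tg and 2.96 to 4.94 CPM in WT.

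Bpgm diverts a triose intermediate into 2,3-bisphosphoglycerate and so bypasses the ATP of Pgk1. It had 24.5, 90.4, 78.1 and 79.8 CPM in Glut1Tg replicates 1 to 4, against 71.3, 29.4, 66.8, 46.0 and 35.8 CPM in WT replicates 1 to 5. Its lowest libraries were Glut1Tg replicate 1 and WT replicate 2, where Tpi1, Pgk1, Pgam1 and Eno1 were highest. The genotypes overlapped, with a fold of 0.964 (95% interval 0.691 to 1.35; edgeR adjusted p = 0.945).

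Lactate dehydrogenase closes the fermentative branch. Ldha, the subunit associated with making lactate, had 1659, 476, 951 and 493 CPM in Glut1Tg replicates 1 to 4, against 453, 1196, 532, 621 and 581 CPM in WT replicates 1 to 5. Ldhb, the subunit associated with the reverse reaction, had 17.8, 29.1, 24.9 and 21.3 CPM in Glut1Tg replicates 1 to 4, against 25.9, 19.8, 27.1, 19.6 and 16.9 CPM in WT replicates 1 to 5. Ldha followed the order of the payoff enzymes, Ldhb did not, and neither separated the genotypes. Ldha made up 92.3% to 98.6% of their summed level per length in Glut1Tg and 92.8% to 97.8% in WT. The folds were 1.57 (95% interval 0.971 to 2.52) for Ldha and 0.947 (0.759 to 1.18) for Ldhb, with edgeR adjusted p of 0.681 and 0.866.

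Lactate leaves through the proton-coupled carriers Mct1 (Slc16a1) and Mct4 (Slc16a3), whose chaperone at the membrane is basigin (Bsg). Slc16a3, the carrier of strongly glycolytic cells, had 116, 15.2, 19.6 and 13.3 CPM in Glut1Tg replicates 1 to 4, against 12.2, 77.8, 13.6, 19.1 and 21.8 CPM in WT replicates 1 to 5. Only 1 library of each genotype was high, and the fold of 1.77 (95% interval 0.893 to 3.5) did not pass (edgeR adjusted p = 0.681). Slc16a1 lay between 35.7 and 51.4 CPM in Glut1Tg and between 10.6 and 41.3 CPM in WT, where the lowest were replicates 4 and 5 of mouse group 2, and its fold of 1.58 (0.936 to 2.68) did not pass either (edgeR adjusted p = 0.681). The mix of carriers varied with the library: per length, Slc16a3 made up 59.8% of Slc16a1, Slc16a3 and Slc16a6 in Glut1Tg replicate 1 and 16.5% to 17.8% in the other Glut1Tg libraries, against 59.3% in WT replicate 2 and 15.4% to 44.4% in the other WT libraries.

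Slc16a6, a carrier of the same family known in zebrafish liver for exporting ketone bodies, had 30.3, 27.9, 39.1 and 31.3 CPM in Glut1Tg replicates 1 to 4, against 25.9, 23.8, 28.2, 18.6 and 16.5 CPM in WT replicates 1 to 5. Only WT replicate 3 reached into the Glut1Tg range. The fold was 1.33 (95% interval 1.02 to 1.73; edgeR unadjusted p = 0.0375, adjusted p = 0.681), and 21.5% of its exonic bases overlap Amz2 on the opposite strand. Bsg had 228, 146, 233 and 136 CPM in Glut1Tg replicates 1 to 4, against 128, 169, 138, 164 and 132 CPM in WT replicates 1 to 5. Glut1Tg replicates 1 and 3 lay above WT and the other 2 inside it, with a fold of 1.36 (95% interval 1.01 to 1.81; edgeR unadjusted p = 0.0415, adjusted p = 0.681).

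**Figure D3:**
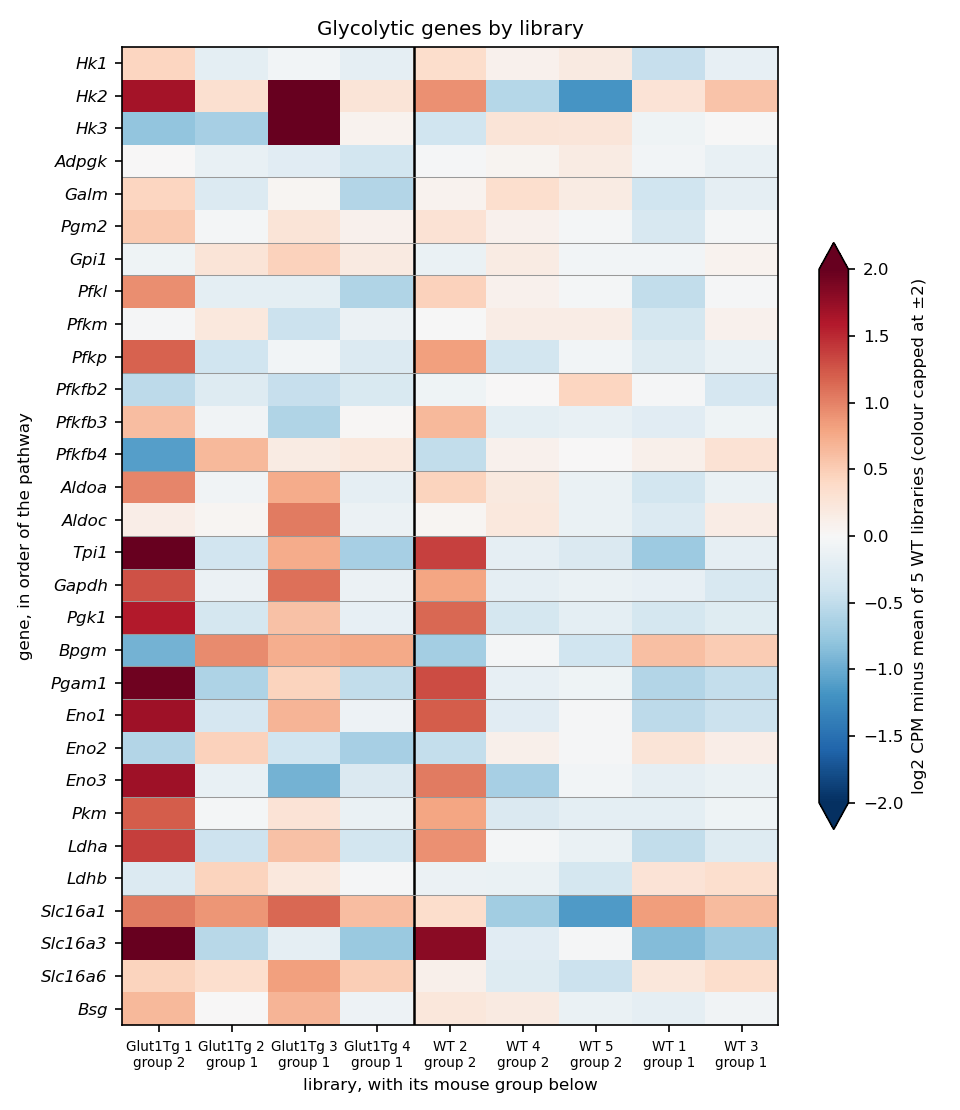
Log2 CPM of the 30 tested genes (y axis, pathway order) in each of the 9 libraries (x axis, 4 Glut1Tg left of the line and 5 WT right of it), as the difference from the WT mean of the gene, with colours capped at 2. The columns of Glut1Tg replicate 1 and WT replicate 2 are red for Pfkp, Tpi1, Pgk1, Pgam1, Eno1, Ldha and Slc16a3 and blue for Bpgm, Pfkfb4 and Eno2, and that of Glut1Tg replicate 3 is red for Hk2, Hk3, Gapdh and Slc16a1, among others.

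Across the steps, Glut1Tg replicate 1 was the highest library in 15 of the 30 genes, where it was so in 22.6% of all genes tested. Glut1Tg replicate 1 and WT replicate 2 were together the 2 highest in 13 genes, against 22.6% of all genes tested, and the 2 lowest in 3, against 19.7%. In the other 14 genes of the module they were neither. These are the libraries with the highest sums of proliferation and of Treg markers, the latter mainly through Il2ra and Tnfrsf18 and not Ctla4 or Ikzf2. Mki67, a marker of cycling cells, stood at 1652 CPM in Glut1Tg replicate 1 and 346 to 606 CPM in the other Glut1Tg libraries, against 1621 CPM in WT replicate 2 and 393 to 808 CPM in the other WT libraries. The part of either sum in the levels of the glycolytic genes was not tested. They are also the libraries with the lowest sums of mast cell, basophil, platelet and erythroid markers.

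Within mouse groups the comparison of genotypes rested on few libraries. In mouse group 1 the 3 Glut1Tg libraries lay above both WT libraries in 4 genes (Gpi1, Gapdh, Bpgm and Eno1) and below them in 0, where 11.9% of all genes tested lay above and 10.4% below. In mouse group 2 the single Glut1Tg library lay above all 3 WT libraries in 19 genes and below them in 6, where 34.2% of all genes tested lay above and 30.7% below, and 1 library has no replicate check. The ratio of Glut1Tg to WT means was above 1 in 22 genes in mouse group 1, in 21 in mouse group 2 and in 17 in both. The share over all genes tested was not computed for this ratio, so the counts cannot be read as particular to the module. In mouse group 2 the ratio rests on Glut1Tg replicate 1 alone. The test of whether the genotype difference itself differed between mouse groups called 0 of the 30 genes and 0 of all genes by edgeR, and 0 by limma-voom (background 0%). At an unadjusted p under 0.05 it held 3 of the 30 genes (Pfkfb4, Bpgm and Eno3), where 5.3% of all genes tested did, and Glut1Tg replicate 1 alone decides this term.

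The mouse group itself, group 2 over group 1 with genotype in the model, separated part of the module and part of all genes tested. Of the 30 genes, 7 were higher in mouse group 2 (Hk1, Galm, Pfkl, Pgam1, Eno1, Ldha and Slc16a3) and 2 lower (Bpgm and Ldhb) at an edgeR adjusted p under 0.05, where 13.1% of all genes tested were higher and 11% lower, or 24.1% in either direction. With 9 of the 30 genes called in either direction, the module was near the share of all genes tested. Fold changes were above 0 in 20 of the 30 genes, where 49.2% of all genes tested were, and without adjustment 14 genes were higher and 3 lower (p under 0.05), where 21% of all genes tested were higher and 18.4% lower. The median log2 fold change was 0.43, against -0.01 over all genes tested. The number of calls depended on single libraries: 0 were left without Glut1Tg replicate 1, 2 without WT replicate 1, 3 without WT replicate 2, 4 without Glut1Tg replicate 2 or without WT replicate 3, and 0 in the 5 WT libraries alone. Calls over all genes tested fell too, from 3576 to 668 without Glut1Tg replicate 1, 1916 without WT replicate 1 and 2134 without WT replicate 2. They fell to 2634 without Glut1Tg replicate 2, 1966 without WT replicate 3 and 642 in WT alone. Without both Glut1Tg replicate 1 and WT replicate 2, the 1 gene of the module called was Slc16a1, lower in mouse group 2 (log2 fold change -1.63, edgeR adjusted p = 0.0265). In that fit 593 of all genes tested were called.

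The largest fold change was that of Slc16a3 (chr11:120948480-120960868, plus strand, mm10), at 58.7 ± 46.8 CPM in mouse group 2 (SD, n = 4) and 14.8 ± 2.88 CPM in mouse group 1 (SD, n = 5). It rose 4.35-fold in mouse group 2 (95% interval 2.18 to 8.70; edgeR adjusted p = 0.0112), but the groups overlapped, since WT replicate 4 of mouse group 2 lay below Glut1Tg replicate 3 of mouse group 1. Pgam1 (chr19:41911923-41918660, plus strand) stood at 185 ± 128 CPM in mouse group 2 and 74.3 ± 27.5 CPM in mouse group 1 (2.77-fold, 1.52 to 5.02; edgeR adjusted p = 0.0241). Eno1 (chr4:150236721-150248879, plus strand) stood at 796 ± 491 CPM in mouse group 2 and 411 ± 162 CPM in mouse group 1 (2.27-fold, 1.33 to 3.88; edgeR adjusted p = 0.0353). Both overlapped between the mouse groups, and in both only Glut1Tg replicate 1 and WT replicate 2 of mouse group 2 lay above every library of mouse group 1. Ldha (chr7:46841475-46855627, plus strand) rose 1.96-fold (1.21 to 3.15; edgeR adjusted p = 0.0474) and Pfkl (chr10:77986947-78010083, minus strand) 1.69-fold (1.22 to 2.34; edgeR adjusted p = 0.0298), likewise with overlap.

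In 6 genes the mouse groups did not overlap: Hk1, Adpgk and Galm were higher and Pfkfb4, Bpgm and Ldhb lower in every library of mouse group 2, where 10.5% of all genes tested were higher and 11.4% lower without overlap. Bpgm (chr6:34476207-34505613, plus strand) had 33.9 ± 9.29 CPM in mouse group 2 (SD, n = 4) and 77.3 ± 9.01 CPM in mouse group 1 (SD, n = 5), and fell to 0.432-fold in mouse group 2 (95% interval 0.308 to 0.606; edgeR adjusted p = 0.00639, the lowest of the module). Ldhb (chr6:142490249-142507957, minus strand) had 18.5 ± 1.38 CPM in mouse group 2 and 25.7 ± 2.92 CPM in mouse group 1 (0.708-fold, 0.567 to 0.884; edgeR adjusted p = 0.0335). Among the higher genes, Hk1 (chr10:62268855-62379908, minus strand) had 243 ± 26.4 CPM in mouse group 2 and 175 ± 16.9 CPM in mouse group 1 (1.45-fold, 1.2 to 1.75; edgeR adjusted p = 0.0141). Galm (chr17:80127471-80185101, plus strand) had 24 ± 2.64 CPM in mouse group 2 and 16.7 ± 2.69 CPM in mouse group 1 (1.47-fold, 1.14 to 1.90; edgeR adjusted p = 0.0383). These 4 genes passed the mouse group test, though not without Glut1Tg replicate 1, while Adpgk and Pfkfb4 did not pass (edgeR adjusted p = 0.203 and 0.108). With 3 of the 30 genes higher and 3 lower without overlap, the module was near the share of all genes tested.

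**Figure D4:**
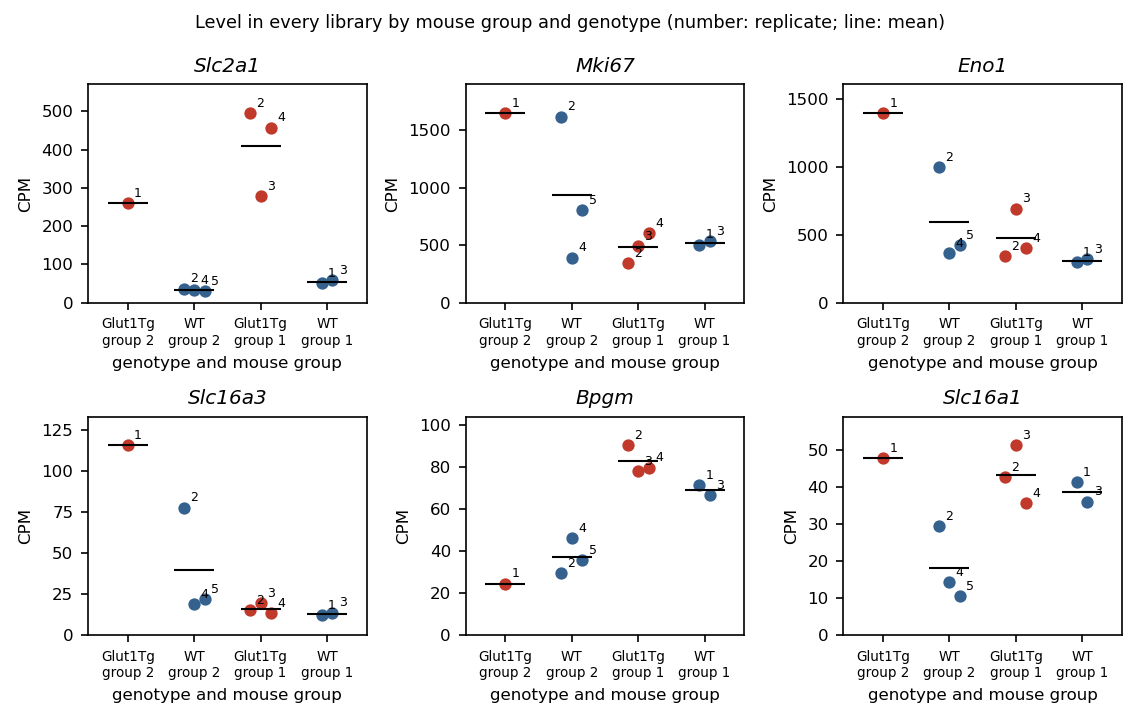
CPM of Slc2a1, Mki67, Eno1, Slc16a3, Bpgm and Slc16a1 in each library (points, with the replicate number; Glut1Tg red, WT blue) by genotype and mouse group, with the group mean as a line. Slc2a1 separates the genotypes in both mouse groups, while Eno1 and Slc16a3 are high in the same 2 libraries as Mki67 and Bpgm is lower in mouse group 2 in both genotypes.

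Glycolytic genes are known for promoter sites of Hif1a and of Myc. Promoter sequence is shown for the 3 of the 7 genes higher in mouse group 2 whose window held a match, and they were picked for that match: Hk1, Pfkl and Eno1 had none, and Galm was not looked up, having no entry in the RefSeq table. The 5-letter core of a hypoxia response element is ACGTG, which is also held in the E-box CACGTG read by Myc, so the 2 motifs overlap. Below are the 250 bases before the transcript start from RefSeq on build GRCm38.p6, in the direction of transcription, with ACGTG on either strand in capitals.
Ldha, chr7:46845554-46845803, plus strand: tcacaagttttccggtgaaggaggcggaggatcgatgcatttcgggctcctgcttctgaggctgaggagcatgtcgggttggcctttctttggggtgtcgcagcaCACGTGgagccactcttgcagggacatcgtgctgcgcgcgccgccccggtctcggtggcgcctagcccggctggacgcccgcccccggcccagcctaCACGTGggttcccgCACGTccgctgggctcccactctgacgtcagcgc
Pgam1, chr19:41911621-41911870, plus strand: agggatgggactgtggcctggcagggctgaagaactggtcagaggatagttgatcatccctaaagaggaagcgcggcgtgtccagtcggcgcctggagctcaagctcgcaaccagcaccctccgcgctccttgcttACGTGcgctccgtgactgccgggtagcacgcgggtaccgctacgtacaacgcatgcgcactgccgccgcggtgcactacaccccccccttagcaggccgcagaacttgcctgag
Slc16a3, chr11:120948817-120949066, plus strand: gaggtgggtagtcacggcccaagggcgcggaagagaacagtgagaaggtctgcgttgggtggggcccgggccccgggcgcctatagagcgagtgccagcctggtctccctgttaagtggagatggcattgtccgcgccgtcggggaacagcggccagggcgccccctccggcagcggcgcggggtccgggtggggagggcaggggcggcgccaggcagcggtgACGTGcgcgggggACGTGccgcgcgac
The Ldha window holds 5 matches counted over both strands, from 145 to 34 bases before the start, because each of its 2 CACGTG palindromes counts on both strands. The Slc16a3 window holds 2, at 27 and 14 bases before the start, and the Pgam1 window 1, at 114 bases.

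Of the module, 28 genes had a promoter in the RefSeq table (not Galm, Slc16a6 or Bsg). ACGTG was found in 12 of them, or 42.9%, against 16.6% of all 32851 promoters of the table in the same 250 bases, and CACGTG in 5, or 17.9%, against 6.02% of all. The genes with a match include some that did not pass either test, such as Pgk1, Pfkm and Slc16a1, while Eno1, Hk1, Pfkl, Bpgm and Ldhb passed the mouse group test without a match in this window. A match is a description of these letters and not of binding.

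The regulators named above and the other main glucose transporter of T cells did not separate the genotypes. Hif1a had 212, 295, 164 and 286 CPM in Glut1Tg replicates 1 to 4, against 321, 196, 286, 120.5 and 138 CPM in WT replicates 1 to 5. Myc had 243, 74.5, 412 and 107 CPM in Glut1Tg replicates 1 to 4, against 84.3, 172, 83.4, 116 and 243 CPM in WT replicates 1 to 5. Slc2a3, which encodes the glucose transporter Glut3, had 21.8, 54.4, 48.6 and 40.5 CPM in Glut1Tg replicates 1 to 4, against 43.5, 27.2, 50.0, 67.6 and 47.8 CPM in WT replicates 1 to 5. All 3 overlapped between genotypes, and none passed (log2 fold changes of 0.02 with SE 0.24, 0.95 with SE 0.53 and -0.38 with SE 0.33, with edgeR adjusted p of 0.981, 0.681 and 0.716). None passed for mouse group 2 over mouse group 1 either. There the log2 fold change was -0.70 for Hif1a (SE 0.25, edgeR adjusted p = 0.0683), with means of 166 and 270 CPM. It was 0.79 for Myc (SE 0.53, edgeR adjusted p = 0.299) and -0.39 for Slc2a3 (SE 0.33, edgeR adjusted p = 0.413). The part of these regulators in the module was not tested. Slc2a3 was lowest in Glut1Tg replicate 1 and WT replicate 2, where Slc16a3, Tpi1, Pgk1, Pgam1, Eno1 and Pkm were highest.

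Around the module, 30 further genes of the pathway were listed (other isoenzymes, phosphatases, pyruvate and glycerol phosphate carriers and shuttles, transporters and regulators), of which 29 were in the table and 21 were tested. For genotype 1 of the 21 was higher, Slc2a1 itself, and 0 were lower, where 0.00675% of all genes tested were higher and 0% lower. The median log2 fold change of the 21 was 0.04, against 0.02 over all genes tested. For mouse group 0 were higher and 4 lower in mouse group 2, where 13.1% of all genes tested were higher and 11% lower. The 4 were Slc2a1 (log2 fold change -0.71, edgeR adjusted p = 0.0248), the muscle mutase Pgam2 (-1.10, 0.0345), Pgm2l1 (-0.57, 0.0316), which makes glucose 1,6-bisphosphate, and the glycerol 3-phosphate dehydrogenase Gpd1 (-2.82, 0.00306). Pgam2 was thus lower in mouse group 2 where Pgam1 was higher: it stood at 6.91 ± 3.09 CPM in mouse group 2 (SD, n = 4) and 12.5 ± 2.32 CPM in mouse group 1 (SD, n = 5). Mpc1, a subunit of the carrier that takes pyruvate into mitochondria, had 69.2, 64.3, 79.1 and 60.5 CPM in Glut1Tg replicates 1 to 4, against 59.3, 53.6, 55.5, 43.3 and 41.8 CPM in WT replicates 1 to 5. Chosen after its values were seen, Mpc1 did not overlap between genotypes, where 1.01% of all genes tested were higher and 0.58% lower without overlap. Its log2 fold change of 0.38 (SE 0.15) did not pass (edgeR unadjusted p = 0.0287, adjusted p = 0.681). The other subunit, Mpc2, lay between 31.1 and 48.0 CPM in Glut1Tg and between 23.4 and 30.5 CPM in WT, also without overlap and without passing (log2 fold change 0.30, SE 0.17, edgeR adjusted p = 0.681). Pgm2l1 ran the other way, at 16.2 to 28.9 CPM in Glut1Tg and 22.5 to 37.8 CPM in WT, with overlap. Within each mouse group, however, Glut1Tg lay below every WT library for Pgm2l1. The genotype log2 fold change of Pgm2l1, -0.49 (SE 0.16), had a lower unadjusted p than Mpc1 and did not pass (edgeR unadjusted p = 0.0123, adjusted p = 0.681).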

How the data were processed

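Messenger RNA of 9 libraries of induced Treg was sequenced as 75 bp paired-end reads from stranded kits, per the labels' protocols. bcl2fastq, TopHat2, featureCounts, DESeq2 and mm10 are named in the submitters' processing notes. The sources used here give neither their versions nor the strand setting nor how reads with several matches were treated. The deposited table holds raw whole-number counts per gene, and the deposited log2 table was not used. Columns were matched to samples by genotype and number.

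The tests used edgeR 4.0.16 in R 4.3.3: filterByExpr by genotype (minimum count 10), TMM scaling, and a quasi-likelihood fit of genotype and mouse group to all 9 libraries. P-values were adjusted by Benjamini-Hochberg over 14817 genes (threshold 0.05), and each SE was derived from the log2 fold change and its F statistic. CPM use TMM-scaled totals. Lengths are those of principal transcripts in GENCODE M21. Scripts were tested on simulated data. Within each genotype every pair of libraries differed beyond sampling noise, so no pair looked like 1 library sequenced again. Each library was counted as 1 sample, though this check cannot show that libraries came from separate mice or cultures. Alternatives were median-ratio size factors, DESeq2 1.42.0, limma 3.58.1 (voom), no filter, leaving out libraries, other terms and subsets.

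Members, lists and tests were chosen with earlier results of these data known. Library values are given for the member with the highest level per length at each step, for those with an unadjusted genotype p under 0.05 and for those passing any test, and other members are given by range.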

Additional observations from a re-analysis of the deposited data

Results flagged for a closer look

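For the 30 genes and Slc2a1, the highest and lowest library in each genotype were compared with the others by Dixon's criterion. Chance meets it in about 1 in 20 groups where groups are independent and values normally spread. Here all groups shared the same 9 libraries and CPM was not log-scaled, so that rate is no yardstick for the count. No share over all genes was computed for this criterion. The criterion was met in 17 of 62 groups, each time by a library above the others: 11 times by WT replicate 2, 3 times by Glut1Tg replicate 1, 2 times by Glut1Tg replicate 3 and 1 time by Glut1Tg replicate 2. Glut1Tg replicate 1 and WT replicate 2 were the 2 highest libraries in 22.6% of all genes tested.

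Among Glut1Tg libraries, replicate 1 stood alone at 269.7 CPM for Pfkp (the others 90.2 to 115), 331 CPM for Eno3 (the others 52.7 to 92.3) and 116 CPM for Slc16a3 (the others 13.3 to 19.6). Replicate 3 stood alone at 7.07 CPM for Hk3 (the others 0.681 to 1.24) and 9.83 CPM for Aldoc (the others 4.42 to 5.26), and replicate 2 at 5.67 CPM for Eno2 (the others 2.61 to 3.12).

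Among WT libraries, replicate 2 stood alone at 209 CPM for Pfkp (the others 91.7 to 115), 81.6 CPM for Pfkfb3 (44.5 to 48.8), 233 CPM for Tpi1 (54.7 to 80.1), 176 CPM for Gapdh (81.6 to 92.9) and 339.8 CPM for Pgk1 (121 to 134). The same library stood alone at 223 CPM for Pgam1 (the others 60.1 to 84.6), 997 CPM for Eno1 (299 to 425), 208 CPM for Eno3 (64.4 to 97.8), 1389.8 CPM for Pkm (656 to 755), 1196 CPM for Ldha (453 to 621) and 77.8 CPM for Slc16a3 (12.2 to 21.8).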

How the results depend on the processing

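The genotype test called 0 genes of the module under each alternative run. Over all genes it called 1, Slc2a1, against 7 by DESeq2, 2 with no filter, 1 to 2 with 1 library left out, and 0 without Glut1Tg replicate 1 and WT replicate 2, in mouse group 1 alone and with the replicate number as a block. The numbers do not pair libraries: same-numbered libraries correlated at -0.51, -0.59, 0.18 and -0.22. With that block the mouse group test called 0 genes of the module and 0 of all genes, at 16 and 4470 unadjusted. Its 9 calls in the module became 1 without Glut1Tg replicate 1 and WT replicate 2, 0 in WT alone, and 0 to 13 with 1 library left out. Its 3576 calls over all genes became 593, 642, and 668 to 4552. The cause was not tested. With 4 and 5 libraries, small changes were not detectable.

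Genotype fold changes turned without Glut1Tg replicate 1 and WT replicate 2, on the log2 scale, in Galm (-0.00063), Pfkl (-0.11), Pfkm (0.00496), Pfkp (-0.065), Pfkfb3 (-0.063), Pfkfb4 (0.13), Bpgm (0.23) and Eno3 (-0.29). In mouse group 1 alone they turned in Pfkl (-0.086), Pfkm (0.024), Pfkp (-0.039), Pfkfb3 (-0.043), Pfkfb4 (0.15), Bpgm (0.26) and Eno3 (-0.27), and with no mouse group term in Hk1 (-0.0053), Galm (-0.073), Pfkfb4 (0.086), Bpgm (0.45) and Ldhb (0.0901). With 1 library left out, the ranges that crossed 0 were Hk3 -0.47 to 1.35, Galm -0.00046 to 0.19, Pfkl -0.11 to 0.46, Pfkm -0.18 to 0.077, Pfkp -0.065 to 0.50, Pfkfb3 -0.063 to 0.27, Pfkfb4 -0.49 to 0.13, Bpgm -0.19 to 0.23 and Eno3 -0.29 to 0.62.

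Mouse group fold changes turned without those 2 libraries in Hk3 (0.30), Gpi1 (0.059), Pfkfb3 (-0.0098), Aldoc (0.099), Eno3 (-0.16) and Pkm (-0.0897), in WT alone in Hk3 (0.12) and Aldoc (0.092), and with the block in Hk2 (0.77), Hk3 (0.047), Pfkfb2 (-0.10) and Aldoc (0.35). With 1 library left out, the ranges were Hk2 -0.68 to 0.26, Hk3 -1.02 to 0.11, Pfkfb2 -0.0068 to 0.30 and Aldoc -0.20 to 0.13. No fold change that turned had passed its test.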
